A study of Mus musculus with 18 samples.

Results

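Glomerular endothelial cells of Cd2ap mutant mice were compared with those of wild type mice. The comparison rested on 6 microarrays, 3 labelled mutant and 3 labelled wild type, of 18 in the series. The other 12 arrays held podocytes and mesangial cells, 3 mutant and 3 control arrays per cell type. The mutant mice were homozygous for the Cd2ap tm1Shaw allele of the B6.129X1 line, and mice of both genotypes were 5 weeks old. Mice of both genotypes carried the Tie2-GFP transgene Tg[TIE2GFP]287Sato/J, in which the Tie2 (Tek) promoter drives green fluorescent protein. Glomeruli were isolated by sieving and dissociated with enzymes, and GFP-positive cells were collected by fluorescence-activated cell sorting. The arrays therefore measured whatever cells of a glomerular preparation the Tie2 promoter labels, which can include blood cells, and in such sorted bulk RNA a change in the number of cells of a type and a change in RNA per cell cannot be told apart. The 3 arrays of a group are called A, B and C. The labels call them biological triplicates and name no animals, so the p-values measure the spread between these samples.

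Cd2ap encodes an adaptor protein that links membrane receptors and junction proteins to the actin cytoskeleton. It is best known in the podocyte, where it sits at the slit diaphragm, and its loss in mice leads to glomerulosclerosis. The glomerular endothelium is the fenestrated inner layer of the same filter, faces the blood and receives VEGF from podocytes. Endothelial cells respond to interferons, which signal through Jak kinases and Stat factors to interferon-stimulated genes. These genes encode antiviral proteins, GTPases that act on intracellular pathogens and the machinery that presents peptides on MHC molecules.

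Of 28856 transcript clusters, which are groups of probes for 1 transcript locus, 11330 reached a signal of 100 on at least 1 of the 6 arrays and were tested. Each array had 9862 to 10042 clusters at or above that signal. Pearson's r between arrays, across clusters, was 0.974 to 0.975 within the mutant group, 0.971 to 0.981 within the wild type group and 0.951 to 0.971 between the groups. The signal of Cd2ap itself was 891, 966 and 920 on the arrays labelled mutant and 840, 859 and 757 on those labelled wild type (log2 difference 0.18, adjusted p = 0.336, limma). The sources used here do not place the probes relative to the altered part of the gene, so this signal checks nothing about the labels, and every direction below rests on them. A second feature separated the arrays. Xist, the RNA of the inactive X chromosome, had a signal of 32.5, 31.7 and 732 on mutant arrays A, B and C and 685, 998 and 1007 on the wild type arrays. The Y-linked gene Ddx3y had 695, 772 and 30.7 on the mutant arrays and 32.7 to 33 on the wild type arrays. Mutant arrays A and B thus carried Y-linked signal that mutant C and all 3 wild type arrays lacked. This pattern was fitted as a block after it had been seen, and the genotype difference in that fit rests on mutant C against the wild type arrays.

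The mutant endothelium showed far more transcripts at higher signal than at lower signal. A low stringency screen (limma, differences of more than 1.5-fold whose unadjusted p was below 0.05) found 335 clusters higher in the mutant arrays, 2.96% of those tested, and 98 lower, 0.865%. The higher clusters carried 272 distinct symbols and the lower ones 63. In the account below, rose and fell are used for genes that passed this screen. With Benjamini-Hochberg adjustment over all clusters (adjusted p under 0.05), 137 were higher, 1.21%, and 9 lower, 0.0794%. A stringent screen (more than 2-fold, with 1 array or more at 500 or above) found 47 higher, 1.81% of the 2592 clusters that bright, and 9 lower, 0.347%. The lowest mutant array lay above the highest wild type array for 17.7% of all clusters tested, and the opposite order held for 7.34%. The median log2 difference over all clusters was 0.07.

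The excess of higher clusters held in each fit, but its size moved with the scaling. Higher clusters made up 77.4% of the low stringency calls on the signals as deposited, 87.7% (436 higher, 61 lower) after subtraction of each array's median and 65.9% (274 higher, 142 lower) after quantile normalization. The share was 69.9% without wild type array A (387 higher, 167 lower). With the Y-linked pattern as a block the screen found 306 higher and 149 lower (67.3% higher). Of the original 335 higher clusters, 228 were also called there, and of the 98 lower clusters 67 were. The adjusted test called 23 higher and 5 lower with the block, and 19 of those 23 were among the original 137. Single arrays moved the adjusted counts as well. The 137 higher clusters became 54 without mutant array A, 60 without wild type array B and 48 without wild type array C. The 9 lower ones became 1 with each of those 3 arrays left out in turn, 33 without mutant array B and 52 without wild type array A. The 98 lower clusters of the low stringency screen became 155 without mutant array B.

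**Figure D1:**
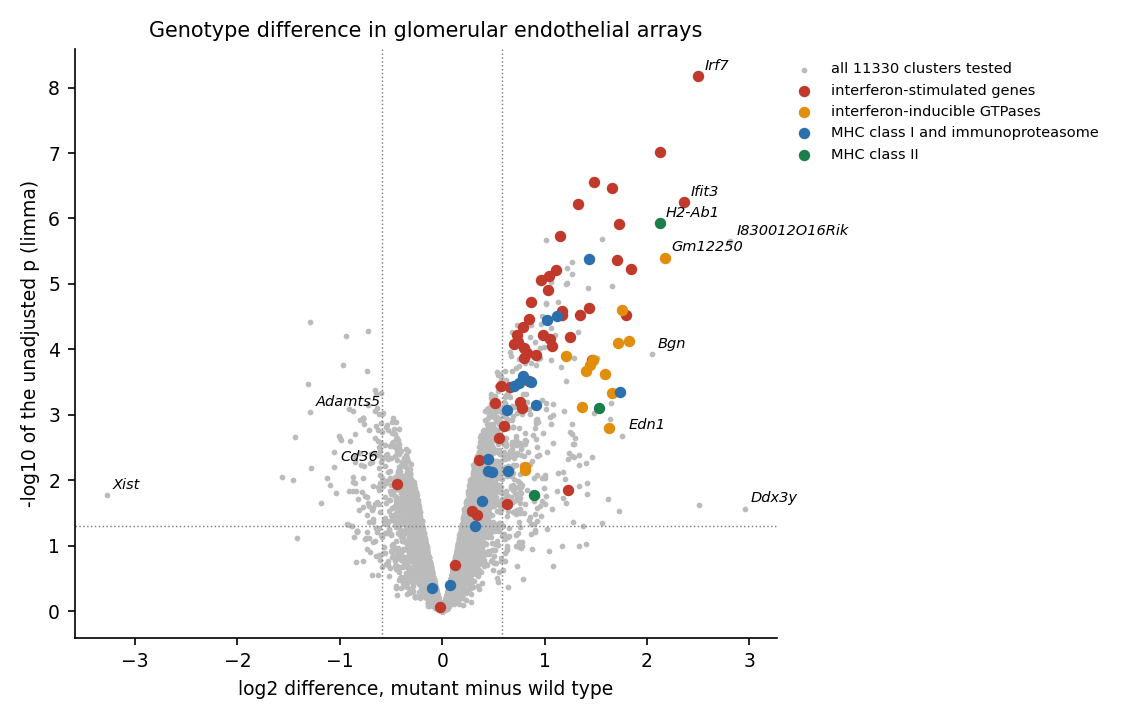
Mutant minus wild type log2 difference (horizontal axis) against the negative log10 of the unadjusted limma p (vertical axis) for the 11330 transcript clusters tested, with the clusters of named gene lists in colour and dotted lines at a fold change of 1.5 and a p of 0.05. Interferon and antigen presentation clusters lie at the upper right, where 69 of their 85 tested clusters passed the low stringency screen as higher.

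Interferon-stimulated genes led the increases. Irf7, the transcription factor that amplifies type I interferon production, had the smallest adjusted p of all clusters (7.53e-05, limma). Its signal was 522, 440 and 480 on the mutant arrays and 88.3, 84.2 and 82.1 on the wild type arrays, or 481 ± 40.8 against 84.9 ± 3.11 (SD, n = 3). This was a 5.65-fold rise, 2.50 on the log2 scale (SE 0.10), with the 3 mutant arrays far above the wild type range. The IFIT genes, whose proteins bind foreign RNA lacking host cap methylation, rose together. Ifit3 read 1957, 1536 and 2119 in the mutant arrays and 313, 434 and 345 in wild type (log2 difference 2.36, adjusted p = 0.00112). Ifit1 read 467, 407 and 434 against 109, 86.4 and 105 (2.13, adjusted p = 0.000536). Ifit2 read 640, 677 and 557 against 222, 179 and 169 (1.72, adjusted p = 0.00173). None of these groups overlapped. The largest increase among clusters that passed the adjusted test was that of I830012O16Rik, whose cluster number on the array falls between those of Ifit3 and Ifit1, at 640, 421 and 614 against 62.7, 108 and 70.9 (2.81, adjusted p = 0.00211).

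Other antiviral effectors also stood apart between genotypes. Rsad2 encodes viperin, which blocks viral replication, and read 932, 1086 and 1073 in mutant arrays against 378, 208 and 334 (1.79, adjusted p = 0.00834). Isg15, a ubiquitin-like protein attached to other proteins during the interferon response, read 458, 558 and 471 against 160, 163 and 147 (1.66, adjusted p = 0.000973). Zbp1, a sensor of nucleic acid in the Z form, read 252, 299 and 181 against 68.5, 62.9 and 68.4 (1.85, adjusted p = 0.00371). For Zbp1 and Irf7 all 3 wild type arrays lay below the signal minimum of 100, as they did for 7 of the tested clusters of this list, so these entered the test through the mutant arrays alone. Oasl2, of the oligoadenylate synthetase family, read 593, 582 and 536 against 195, 198 and 218 (1.49, adjusted p = 0.000973). Rtp4 read 1138, 1119 and 990 against 423, 437 and 430 (1.33, adjusted p = 0.00112). The lowest mutant signal exceeded the highest wild type signal for each of these genes.

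**Figure D2:**
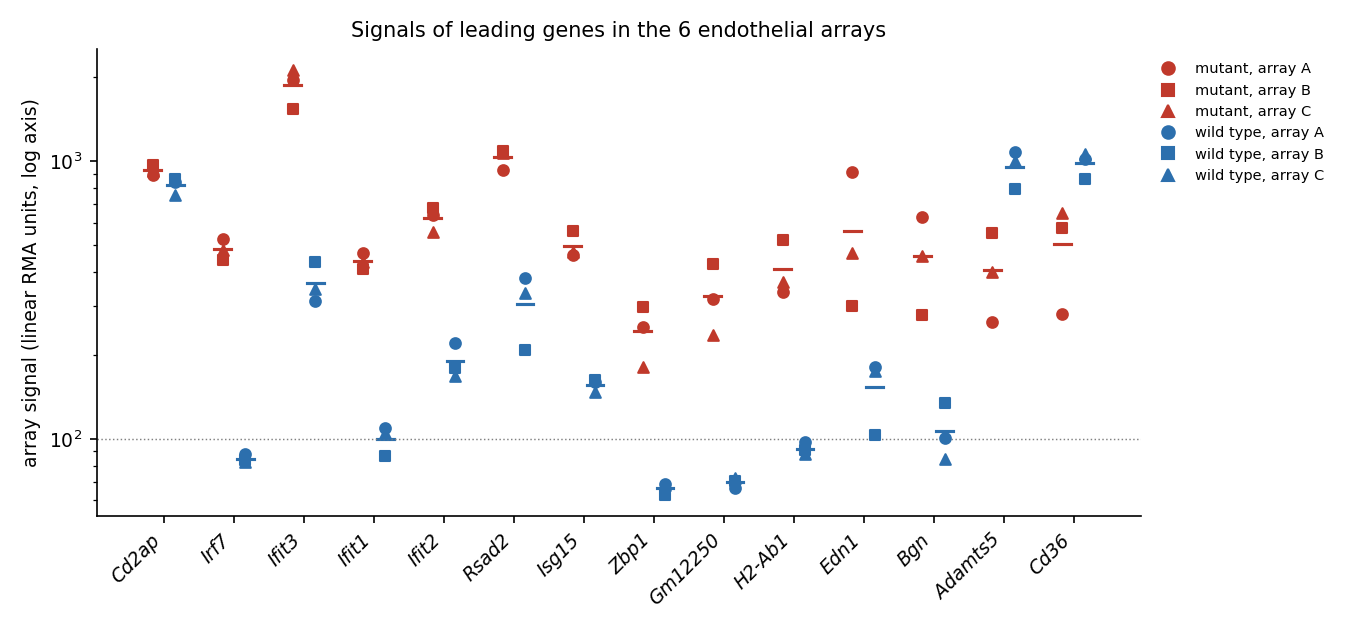
Signal on a log axis for 14 genes on each of the 3 mutant and 3 wild type endothelial arrays; points are arrays, bars are arithmetic means and the dotted line marks a signal of 100. The 3 mutant arrays of Irf7 sit between 440 and 522, above wild type arrays of 82.1 to 88.3, while Cd2ap lies between 757 and 966 over all 6 arrays.

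Of 55 interferon-stimulated clusters on the array, 50 reached the signal minimum. Among them 41 rose and none fell, beside 2.96% and 0.865% of all clusters, and 38 passed the adjusted test, beside 1.21%. The median log2 difference was 0.94 against 0.07 over all clusters. The lowest mutant array was above the highest wild type array in 47 of the 50, beside 17.7% of all clusters. The factors that carry the interferon signal were among those that rose. Stat2 read 428, 451 and 344 against 217, 163 and 202 (1.07, adjusted p = 0.0149), and Irf9, its DNA-binding partner, 336, 305 and 262 against 167, 175 and 174 (0.80, adjusted p = 0.015). The cytosolic RNA sensors also rose, Ifih1 (MDA5) by 0.92 (adjusted p = 0.0182) and Ddx58 (RIG-I) by 0.73 (adjusted p = 0.0122). Mx2, a dynamin-like antiviral GTPase, read 232, 170 and 151 against 71.3, 60.9 and 70.1 (1.43, adjusted p = 0.00812). Rnf213, a large ubiquitin ligase, is covered by 15 clusters, of which 14 were tested and 12 rose, with a median log2 difference of 1.06.

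The list was not uniform. Ifitm2 (-0.02) and Ifitm3 (0.12), membrane proteins that limit viral entry, and Ly6e (0.36) did not pass the screen. The cluster of Ifi27, which the array lists as Ifi27l1, read 312, 239 and 235 in mutant arrays and 317 to 378 in wild type (-0.44, adjusted p = 0.164), with every mutant array below every wild type array. Oas3, Ifi44l, Epsti1, Ifitm1 and Mx1 stayed under the signal minimum on all 6 arrays. Bst2 (tetherin) read 436, 441 and 201 against 104, 245 and 119, and its groups overlapped (adjusted p = 0.18). Over the other settings tried 37 to 44 of the 50 clusters rose, and 38 rose with the Y-linked pattern as a block, where the list median was 0.80 and the Ifi27 cluster was called as a decrease (-0.59). Several clusters carry more than 1 symbol, among them Oas1g with Oas1a (1.17), Ifi204 with Mnda (1.71), Ifi47 with Olfr56 (1.46) and Parp9 with Dtx3l (1.15), and each shared cluster was counted once.

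Promoter sequence was read from RefSeq (GRCm38.p6) for 7 genes called higher, picked after their values and promoters were seen, to show where the core of the interferon-stimulated response element lies relative to the gene start. The core searched was GAAA, any 2 bases, then GAAA, on both strands. It occurred in 3.44% of the 32851 windows of 300 bases (250 before and 50 after a start) in the table, and in 1.74% on the gene strand alone. A second motif, TTC, any 3 bases, then GAA, the core of the gamma-activated sequence through which interferon gamma acts, occurred in 8.3% and reads the same on both strands. The 160 bases before the start are printed 5′ to 3′ on the gene strand, with matches in capitals. Ifit3 (chr19:34583369-34583528, plus strand) and Ifit1 (chr19:34640729-34640888, plus strand) each held 2 matches of the first core, in reverse complement, at -156 to -147 and -122 to -113 and at -104 to -95 and -85 to -76. Gm12250 (chr11:58183683-58183842, plus strand) held 2 at -91 to -82 and -46 to -37 with the gamma-activated core at -61 to -53 between them. In Gbp3 (chr3:142559884-142560043, plus strand, 1 of 2 listed windows) a pair of overlapping matches ran from -45 to -30, and in Irgm1 (chr11:48871421-48871580, minus strand) a pair ran from -30 to -15 in the direction of the gene. Edn1 (chr13:42301316-42301475, plus strand) held 1 match at -78 to -69. Irf7 (chr7:141266425-141266584, minus strand) held neither string of letters in this window. These genes do not stand for the increases as a whole. Of 247 genes called higher through a cluster of their own 169 have a window in the table, and 26 of these (15.4%) held the first core. Of 8228 tested genes with a cluster of their own 5749 have a window, and 3.64% of these held it. The second core was held by 11.8% of the 169 and 8.26% of the 5749. The shares are a description whose difference was not tested, and genes without a window are not covered. A match is a description of letters, not a site. H2-Ab1 and Adamts5 have no entry in the table.
Ifit3: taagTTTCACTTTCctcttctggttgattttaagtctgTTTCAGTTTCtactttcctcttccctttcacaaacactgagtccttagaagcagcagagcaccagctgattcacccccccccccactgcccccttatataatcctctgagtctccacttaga
Ifit1: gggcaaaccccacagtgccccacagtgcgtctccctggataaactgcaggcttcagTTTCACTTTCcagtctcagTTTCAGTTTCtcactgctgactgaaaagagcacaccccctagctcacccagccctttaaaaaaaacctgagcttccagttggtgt
Gm12250: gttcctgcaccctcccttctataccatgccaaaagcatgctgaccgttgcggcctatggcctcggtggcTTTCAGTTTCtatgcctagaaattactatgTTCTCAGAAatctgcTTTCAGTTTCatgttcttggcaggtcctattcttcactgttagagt
Gbp3: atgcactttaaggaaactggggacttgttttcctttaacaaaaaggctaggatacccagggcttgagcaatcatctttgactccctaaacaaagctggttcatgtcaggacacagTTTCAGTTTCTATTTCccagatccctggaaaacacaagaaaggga
Irgm1: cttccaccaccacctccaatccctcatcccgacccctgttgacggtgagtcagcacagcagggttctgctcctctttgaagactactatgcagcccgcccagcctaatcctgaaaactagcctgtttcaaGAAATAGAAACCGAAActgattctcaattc
Edn1: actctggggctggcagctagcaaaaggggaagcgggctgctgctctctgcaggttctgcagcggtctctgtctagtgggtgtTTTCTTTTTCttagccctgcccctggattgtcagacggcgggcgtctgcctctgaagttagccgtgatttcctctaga
Irf7: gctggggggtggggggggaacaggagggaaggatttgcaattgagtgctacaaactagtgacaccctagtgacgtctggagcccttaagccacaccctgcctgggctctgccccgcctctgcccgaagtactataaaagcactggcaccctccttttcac

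The interferon-inducible GTPases, which attack the vacuoles of intracellular microbes, were among the largest increases. Of 15 clusters on the array 14 reached the signal minimum and passed the low stringency screen with no overlap between groups, beside 2.96% and 17.7% of all clusters, and 10 passed the adjusted test, beside 1.21%. Gbp5 and Gm12250 reached the minimum on mutant arrays only, so the filter itself favoured a difference in these 2. The list median was 1.53, and 11 to 14 rose over the other settings (13 with the block, median 1.36). Gm12250 read 318, 425 and 236 against 66.7, 70.7 and 72.5 (2.18, adjusted p = 0.00325). Gbp3 of the guanylate-binding proteins read 336, 419 and 310 against 149, 76.6 and 86.4 (1.82, adjusted p = 0.0137). The cluster shared by Irgm2 and Igtp, of the immunity-related GTPases, read 827, 1334 and 787 against 312, 252 and 286 (1.76, adjusted p = 0.00834). Both families therefore had members whose groups stood apart. Iigp1 read 1246, 1945 and 1187 against 557, 342 and 422 (1.72, adjusted p = 0.0139), and Gbp4 735, 1637 and 1032 against 437, 333 and 273 (1.65, adjusted p = 0.04). The cluster shared by Tgtp1, Tgtp2 and Gm12185 read 1381, 2583 and 1390 against 875, 523 and 364 (1.63) but missed the adjusted threshold (adjusted p = 0.0717), as did Irgm1 (1.37, adjusted p = 0.0524) and Gbp9 (0.81, adjusted p = 0.13). Mutant array B was the highest of the mutant arrays in 13 of the 14 GTPase clusters, compared with 32.3% of all clusters tested, and without it the list median was 1.34.

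Genes for antigen presentation by MHC class I rose in part. Of 18 clusters 11 rose, beside 2.96% of all clusters, and 8 passed the adjusted test, beside 1.21% (median 0.68). Of the peptide-processing genes Tap1, Tap2, Tapbp, Psmb8, Psmb9 and Erap1 rose, while Tapbpl, Psmb10, Psme1 and Psme2 did not pass. Psmb8, an immunoproteasome subunit, read 575, 661 and 604 against 267, 220 and 197 (1.44, adjusted p = 0.00325). Tap1, which moves peptides into the endoplasmic reticulum, read 220, 248 and 188 against 110, 88.4 and 101 (1.13, adjusted p = 0.00834). Psmb9 read 1147, 1640 and 1390 against 889, 625 and 707 (0.91, adjusted p = 0.0518). Of the heavy chains, H2-K1 read 1316, 1299 and 1400 against 991, 739 and 883 (0.63, adjusted p = 0.0529), and lost its call without wild type array B and under quantile normalization. The cluster shared by H2-D1 and H2-L did not pass (0.32), and neither did B2m, the light chain (0.07). The non-classical cluster shared by H2-T22, H2-T9 and H2-T10 read 274, 330 and 324 against 57.3, 92.8 and 149 (1.74, adjusted p = 0.04). From 8 to 11 class I clusters rose over the other settings and 9 with the block (median 0.60).

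MHC class II molecules present peptides to helper T cells and are displayed mainly by professional antigen-presenting cells, and on endothelium after exposure to interferon gamma. H2-Ab1, the class II beta chain, read 336, 519 and 367 on the mutant arrays and 97.1, 90.9 and 87.8 on the wild type arrays, or 407 ± 97.6 against 91.9 ± 4.7 (SD, n = 3). This was a 4.36-fold rise (2.12, SE 0.16, adjusted p = 0.00173). H2-Aa, its alpha chain partner, read 121, 271 and 141 against 71.3, 49.5 and 54.9 (1.53, adjusted p = 0.0524). Mutant array B was highest for both chains. Both lay below 100 on all 3 wild type arrays and so were tested only because of their mutant signal. Ctss, the protease that trims the invariant chain, read 305, 224 and 126 against 98, 101 and 134. Its groups overlapped (0.90, adjusted p = 0.187). Its call was lost without mutant array A (0.61) or wild type array A (0.81), in the fit over 18 arrays and with the block (0.19). The other 9 of 12 class II clusters stayed below the signal minimum, including Cd74, the invariant chain (59 to 64.6 in mutant, 45.9 to 50.7 in wild type arrays), and Ciita, the class II transactivator. H2-Eb1 was also below it, at 81.8, 96.2 and 93.2 against 69.8, 89.1 and 70.

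The 4 lists of interferon-stimulated genes, GTPases, MHC class I and MHC class II held 85 tested clusters, of which 69 rose. These lists were chosen with earlier results of these data known, so the shares are a description. Of the 69, 11 lay below 100 on all 3 wild type arrays and entered the test through the mutant arrays alone. The 85 clusters were 0.75% of those tested, and 2.96% of all clusters rose. They made up 20.6% of the 335 low stringency increases, 41.6% of the 137 adjusted ones and 51.1% of the 47 stringent ones. The 20 clusters with the smallest p included 14 of them.

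**Figure D3:**
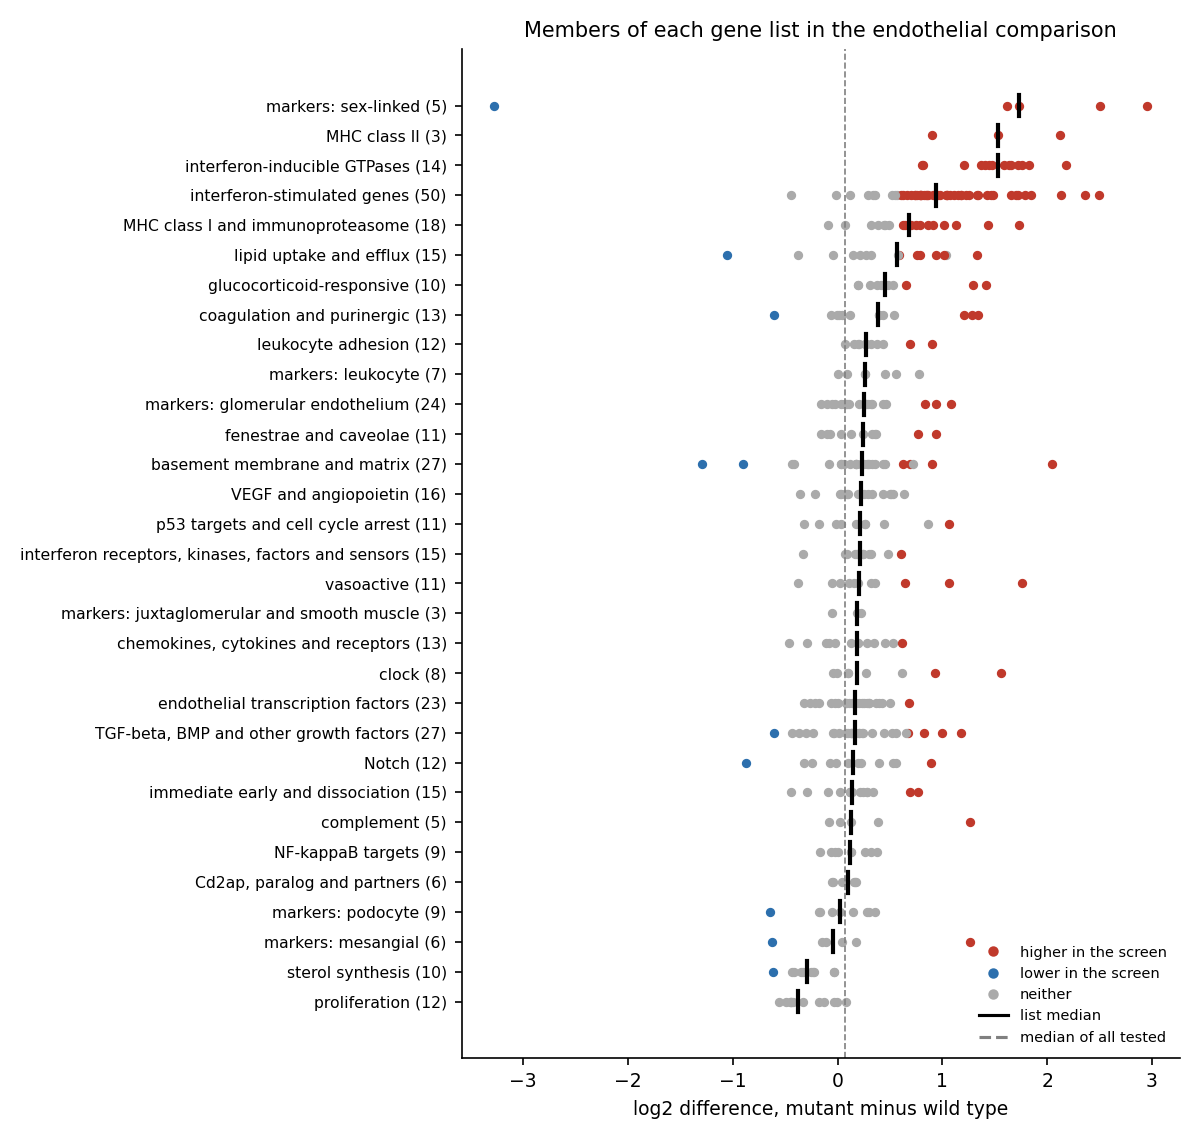
Mutant minus wild type log2 difference of each tested member (dots) of each gene list with at least 3 tested members, with the list median in black and the median over all clusters tested, 0.07, as a dashed line. The GTPase (median 1.53) and interferon-stimulated (0.94) lists lie to the right of zero almost entirely. So do others with smaller medians, such as leukocyte adhesion (12 of 12 members, 0.27) and glucocorticoid-responsive genes (10 of 10, 0.45). Sterol synthesis (-0.29) and proliferation (-0.38) lie mostly to the left.

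Of 15 tested receptors, kinases, factors and sensors upstream of this response 1 rose, beside 2.96% of all clusters (median 0.21). In 14 the mutant mean was higher, as in 64.9% of all clusters, and in 7 the groups did not overlap, with the mutant arrays on top, beside 17.7% of all clusters. The receptor chains Ifnar1 (0.24), Ifnar2 (0.24), Ifngr1 (0.21) and Ifngr2 (0.09) and the kinases Jak1 (0.20) and Jak2 (0.30) did not pass the screen. The member that rose was Irf1, a factor induced by interferon gamma, which read 215, 275 and 205 against 171, 148 and 136 (0.60, adjusted p = 0.0923). It lost its call without mutant array B or wild type array C, under quantile normalization and with the block (0.44). Tlr3, a sensor of double-stranded RNA, read 339, 357 and 341 against 233, 263 and 247 (0.48, adjusted p = 0.0496), a change under 1.5-fold. The interferon transcripts Ifnb1, Ifna4 and Ifng stayed below the signal minimum on all 6 arrays. Ifnb1 read 28.2, 27.3 and 29.4 in mutant arrays and 28.9, 27.6 and 29 in wild type.

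Complement factor B, a protease of the alternative pathway, was the member of the complement list that rose, of 5 tested, beside 2.96% of all clusters. Cfb read 383, 379 and 384 against 157, 136 and 186 (1.27, adjusted p = 0.00404). C3 was below the signal minimum on all 6 arrays. Among 13 tested chemokine, cytokine and receptor clusters 1 rose, beside the same 2.96%. It was Il4ra, the alpha chain of the interleukin 4 receptor, at 803, 685 and 657 against 506, 446 and 444 (0.62, adjusted p = 0.0442). Its call was lost without mutant array A (0.53), under quantile normalization (0.53) and with the block (0.50). The interferon-induced chemokines Cxcl10 and Cxcl9 did not pass on the 6 arrays. Cxcl10 read 95.7, 191 and 104 against 214, 71.3 and 69.7 (0.28, adjusted p = 0.764), with wild type array A the highest of all, and without that array it differed by 0.81 and was called. Cxcl9 read 51.2, 153 and 71.6 against 217, 49.3 and 55.7 (-0.03).

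Of 12 tested adhesion molecules that capture leukocytes, Vcam1 and Sele rose, beside 2.96% of all clusters. Neither passed the adjusted test, and the groups of both overlapped. With the Y-linked pattern as a block the differences of Vcam1 and Sele were 0.72 and 0.78, and neither was called. Vcam1, the ligand of integrin VLA-4, read 209, 158 and 187 against 180, 93.9 and 87.2 (0.69, adjusted p = 0.226), and its call was lost without mutant array A or C or wild type array B or C. Sele, E-selectin, read 1278, 400 and 630 against 372, 290 and 460 (0.90, adjusted p = 0.265). Its difference was 0.45 without mutant array A and 1.29 without mutant array B, and the call was lost without mutant array A or C or wild type array A or B, with no signal minimum, with trended and robust variance and under quantile normalization. Icam1 read 224, 140 and 142 against 135, 113 and 133 (0.38, or 0.16 without mutant array A and 0.17 with the block) with no overlap but did not pass, and Selp was below the minimum.

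Vasoactive genes held one of the larger increases. Edn1, which encodes the vasoconstrictor endothelin 1, read 911, 300 and 465 on the mutant arrays and 181, 103 and 176 on the wild type arrays, or 559 ± 316 against 153 ± 43.5 (SD, n = 3). The groups did not overlap and the rise was 1.76 on the log2 scale (SE 0.39), but the adjusted p was 0.0816 and the difference was 1.33 without mutant array A. Ace, which makes angiotensin II, read 230, 156 and 211 against 103, 84.8 and 95.2 (1.06, adjusted p = 0.0189). Ramp3, a subunit of adrenomedullin receptors, rose by 0.65 (adjusted p = 0.113) and lost its call without mutant array C or wild type array C, under quantile normalization and in the fit over 18 arrays. Nos3, the endothelial nitric oxide synthase, did not pass (-0.05). In all, 3 of 11 tested members of this list rose, beside 2.96% of all clusters. The list median was 0.20, or 0.10 without mutant array C and 0.31 without mutant array A.

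Enzymes of extracellular nucleotide breakdown rose, and the receptor P2ry1 fell. Entpd1 (CD39), which degrades ATP and ADP, read 1220, 914 and 1371 against 563, 569 and 384 (1.21, adjusted p = 0.0313). Ada, adenosine deaminase, read 513, 446 and 330 against 211, 152 and 163 (1.29, adjusted p = 0.0186). P2ry1, a receptor for ADP, read 231, 364 and 230 against 394, 456 and 380 (-0.61, adjusted p = 0.163) and lost its call without mutant array A or C or wild type array B, after subtraction of array medians and in the fit over 18 arrays. Thbd, the thrombin receptor of the protein C pathway, did not pass (0.40). Of 13 tested members of the coagulation and purinergic list 3 rose and 1 fell, beside 2.96% and 0.865% of all clusters. The list median was 0.39, or 0.23 without mutant array A, 0.20 without wild type array A and 0.06 with the block.

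Growth factor and matrix genes included large changes with wide spread. Bgn, which encodes the small proteoglycan biglycan, read 630, 280 and 457 against 101, 135 and 84.3 (2.04, SE 0.29, adjusted p = 0.0182), a 4.13-fold rise with no overlap. Bmp4, a ligand of the TGF-beta superfamily, read 270, 170 and 466 against 142, 98.9 and 132 (1.18, adjusted p = 0.14). Pdgfb, which recruits mesangial cells and pericytes, read 483, 297 and 277 against 269, 156 and 168 (0.83, adjusted p = 0.178), with its call lost without mutant array A or wild type array B or C and with the block (0.53). Mdk, the growth factor midkine, did not pass and lay lower in the mutant arrays, at 147, 112 and 132 against 147, 159 and 153 (-0.23). Of 27 tested TGF-beta, BMP and growth factor genes 4 rose and 1 fell, beside 2.96% and 0.865% of all clusters. None passed the adjusted test, beside 1.21% higher and 0.0794% lower of all clusters (list median 0.17). The one that fell was Hbegf (-0.61, adjusted p = 0.146), and its call was lost without mutant array C or wild type array B and after subtraction of array medians.

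Among 27 tested matrix genes 4 rose and 2 fell, beside 2.96% and 0.865% of all clusters (list median 0.23). Of the type IV collagen chains in the list Col4a3 was below the signal minimum, and Col4a1 and Col4a2 rose, Col4a1 at 351, 340 and 430 against 286, 216 and 226 (0.63, adjusted p = 0.0855) and Col4a2 at 278, 250 and 344 against 238, 162 and 149 (0.69, adjusted p = 0.142). Both calls were lost without mutant array C or wild type array C and under quantile normalization, and that of Col4a1 also without wild type array B. Fn1, fibronectin, read 202, 123 and 213 against 125, 70.3 and 93.2 (0.90, adjusted p = 0.152), with mutant array B inside the wild type range. The 2 decreases were those of Adamts5 and Adamts16, proteases of the ADAMTS family. Adamts1, Adamts4 and Adamts9, also in the list, were not called lower. Adamts5, which cleaves aggrecan and versican, read 264, 548 and 399 on the mutant arrays and 1076, 792 and 998 on the wild type arrays, or 404 ± 142 against 955 ± 147 (SD, n = 3). It fell by 1.29 on the log2 scale (SE 0.25), with no overlap, and its adjusted p was 0.054. Adamts16 read 97.5, 175 and 121 against 236, 212 and 270 (-0.90, adjusted p = 0.0885).

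Lipid-handling genes moved in both directions. Cd36, a fatty acid transporter and thrombospondin receptor, read 282, 572 and 648 on the mutant arrays and 1021, 864 and 1060 on the wild type arrays, or 501 ± 193 against 982 ± 103 (SD, n = 3). It fell by 1.05 (SE 0.29), every mutant array lay below the wild type range, and the adjusted p was 0.131. Without mutant array A the difference was -0.68, and with the block it was -0.59 and not called. The call was also lost when all 18 arrays shared 1 estimate of spread. Gpihbp1, which anchors lipoprotein lipase to capillary endothelium, read 1574, 1196 and 1430 against 932, 727 and 778 (0.78, adjusted p = 0.0409). Acer2, an alkaline ceramidase, read 2232, 1465 and 1564 against 771, 775 and 1042 (1.01, adjusted p = 0.0507). Abca1, the cholesterol exporter, rose by 0.94 (adjusted p = 0.0641). Fabp4, a fatty acid carrier, read 1477, 1306 and 1529 against 1072, 922 and 884 (0.59, adjusted p = 0.0524) and lost its call without mutant array A or C or wild type array B or C, under quantile normalization and in the fit over 18 arrays. Of 15 tested members 6 rose and 1 fell, beside 2.96% and 0.865% of all clusters (list median 0.57, or 0.33 without mutant array A). Sterol synthesis genes gave a median of -0.29 over 10 tested (-0.15 without wild type array A, -0.44 without wild type array C). None of the 10 had a higher mutant mean, beside 64.9% of all clusters. In 3 every mutant array lay below every wild type array, beside 7.34%. Of the 10, 1 fell, Fdps (-0.61, adjusted p = 0.132), beside 0.865% of all clusters. Fdps lost its call without mutant array C or wild type array A or C and after subtraction of array medians.

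Genes that define endothelium were present in both genotypes. Of 24 tested endothelial markers 20 had a higher mutant mean, beside 64.9% of all clusters, and 9 had no overlap with the mutant arrays above, beside 17.7%. Among the 24, 3 rose, beside 2.96% of all clusters, and none passed the adjusted test (median 0.25). Their summed signal was 29152, 29347 and 30038 in mutant arrays against 27579, 26776 and 25431. Kdr (0.07), Flt1 (0.04), Tek (0.09), Pecam1 (0.27), Cdh5 (0.26) and Emcn (-0.10) did not pass. Cd93, a transmembrane lectin of endothelium, was among those that rose, at 1393, 920 and 1288 against 718, 433 and 556 (1.09, adjusted p = 0.0566). Counts near the background of 2.96% were found for the VEGF list, where none of 16 tested genes passed in either direction (median 0.22, or 0.11 without mutant array A), and for endothelial transcription factors, where 1 of 23 rose. It was Foxc2 (0.68, adjusted p = 0.0923), whose call was lost without mutant array C. In the Notch list 1 of 12 tested members rose and 1 fell, beside 2.96% and 0.865% of all clusters. Nr2f2, the factor that specifies venous identity, read 274, 160 and 193 against 106, 128 and 99.3 (0.89, adjusted p = 0.0799). Hey2, an arterial factor, read 64.7, 142 and 65.1 against 160, 157 and 146 (-0.87, adjusted p = 0.182), with its call lost without mutant array A or C. Plvap, the diaphragm protein of fenestrae, read 205, 124 and 243 against 82, 104 and 103 (0.94, adjusted p = 0.11). Cdkn1a, the cell cycle inhibitor p21, read 676, 688 and 526 against 335, 281 and 286 (1.06, adjusted p = 0.0105). In the list of p53 targets and cell cycle arrest genes it was the 1 of 11 tested members that rose, beside 2.96% of all clusters.

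Few decreases passed the adjusted test. Of the 9 clusters, 5 carried a symbol, Fam38b, Tspan13, Tmem26, Synm and Rnu2. Apart from Tspan13, they lie outside the rule for named genes and were chosen after their values were seen. Tspan13, a tetraspanin, read 96.8, 128 and 106 against 225, 208 and 199 (-0.94, adjusted p = 0.0122). It was not called when all 18 arrays shared 1 estimate of spread. Fam38b, the array's older symbol for the mechanosensitive channel Piezo2, read 245, 273 and 236 against 415, 420 and 406 (-0.72, adjusted p = 0.0115). Tmem26, a transmembrane protein, read 450, 562 and 457 against 765, 869 and 808 (-0.74, adjusted p = 0.0245). Synm, the intermediate filament protein synemin, fell by 0.66 (adjusted p = 0.0384). The groups did not overlap for any of these genes. Dpp4, a cell surface peptidase, read 57.6, 103 and 58.1 against 271, 170 and 107 (-1.28, adjusted p = 0.132), with a narrow gap between the groups, and like Tspan13 was not called in the fit over 18 arrays.

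Some defining markers of other cells were below the signal minimum and others reached it. The podocyte gene Nphs1, the mesangial genes Pdgfrb and Itga8, the renin gene Ren1, the macrophage gene Adgre1, the T cell gene Cd3e and the tubule gene Umod were below a signal of 100 on all 6 arrays. Of 17 podocyte clusters 9 were tested and 1 fell, beside 0.865% of all clusters. The summed signal of the 17 was 4087, 4172 and 4160 in mutant arrays and 4300, 3708 and 3678 in wild type. Of 14 mesangial marker clusters 6 were tested, with 1 higher and 1 lower, beside 2.96% and 0.865% of all clusters. The higher one was Serpine2, a secreted protease inhibitor, at 467, 177 and 251 against 119, 95.4 and 131 (1.27, adjusted p = 0.111), and without mutant array A it differed by 0.88. The lower one was Sfrp2, a secreted Wnt antagonist (-0.63, adjusted p = 0.0731). Its call was lost without mutant array B or wild type array A, after subtraction of array medians, in the fit over 18 arrays and with the block (-0.54). The leukocyte markers moved with 1 array. Of 25 clusters 7 were tested and none passed, but all 7 had a higher mutant mean, beside 64.9% of all clusters. All 7 were highest, among the mutant arrays, in array A, beside 40.7% of all clusters. Their summed signal with the clusters below the minimum was 2263, 1773 and 1484 in mutant arrays and 1399, 1547 and 1693 in wild type. Tyrobp, a signalling adaptor of myeloid cells, read 475, 274 and 151 against 108, 179 and 201, and Ptprc (CD45) 168, 101 and 76.3 against 74.8, 97.7 and 69.5. Without mutant array A the interferon-stimulated list had a median of 0.92 and the GTPase list 1.68. Hemoglobin and proliferation markers were highest in wild type array A, at 1232 for the cluster of Hba-a1 and Hba-a2 and 252 for Top2a, and no call in those lists passed.

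**Figure D4:**
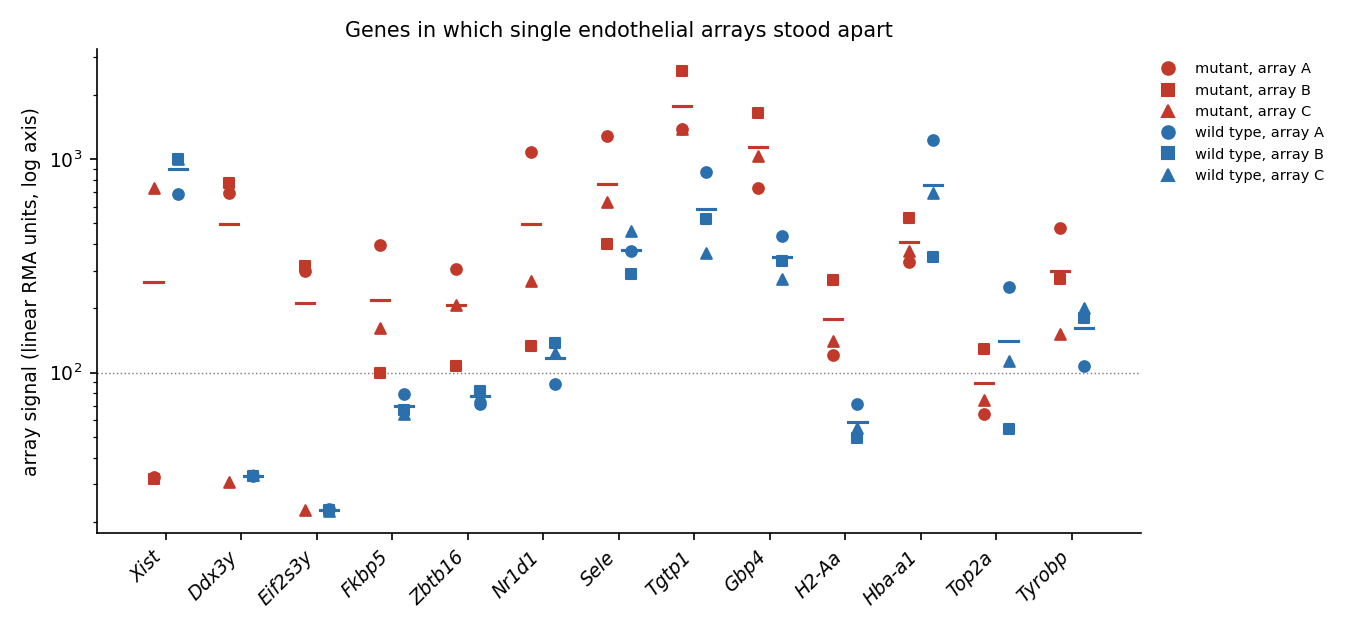
Signal on a log axis of 13 genes whose levels differed between arrays of 1 genotype, on each endothelial array. Mutant array A is highest for Fkbp5 (395), Nr1d1 (1086, shared with Thra), Sele (1278) and Tyrobp (475), mutant array B for the GTPases Tgtp1 (2583, a shared cluster) and Gbp4 (1637), and mutant arrays A and B carry Ddx3y.

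Mutant and control arrays of podocytes and mesangial cells gave values to set beside these, and no arrays were shared between cell types. The mesangial controls are marked +:- in the table and wild type in the labels, so that contrast may not be the same one. The median difference of the interferon-stimulated list was 0.94 in endothelium, 0.13 in podocytes and -0.01 in mesangial cells, and that of the GTPase list was 1.53, 0.56 and 0.33. The difference between the genotype effects was tested over 13523 clusters. The endothelial markers, at 0.25 in endothelium, had a median of -1.05 in podocyte and -0.37 in mesangial arrays, and their part in the values below was not tested. The difference of effects passed the adjusted test for 285 clusters against podocytes, 2.11%, and 145 against mesangial cells, 1.07%. Of the 50 interferon-stimulated clusters 7 differed from podocytes and 8 from mesangial cells. Ifit2 differed by -0.21 in podocytes and -0.16 in mesangial cells, and the gap to the endothelial 1.72 passed in both tests (adjusted p = 0.00157 and 0.000492). Irf7 differed by 0.51 and 0.57 in these cells. The gap to the endothelial 2.50 passed against podocytes (adjusted p = 0.0498) but not against mesangial cells (adjusted p = 0.0751). None of the 14 GTPase clusters passed either test, and the Tgtp1 cluster differed by 1.80 in podocytes. Adamts5 (-1.67 in podocytes, -0.24 in mesangial cells) and Cd36 (-2.12 and -1.02) had differences of the same sign in all 3 cell types. With the Y-linked pattern as a block over all 18 arrays, 46 and 36 clusters passed. After subtraction of array medians 970 and 262 passed, and in fits on the 12 arrays of each pair of cell types 55 and 289. Against podocytes 30, 162 and 87 clusters passed without mutant arrays A, B and C, and 61 and 32 without wild type endothelial arrays B and C. Against mesangial cells 88 passed without mutant array A and 86 without wild type array C.

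**Figure D5:**
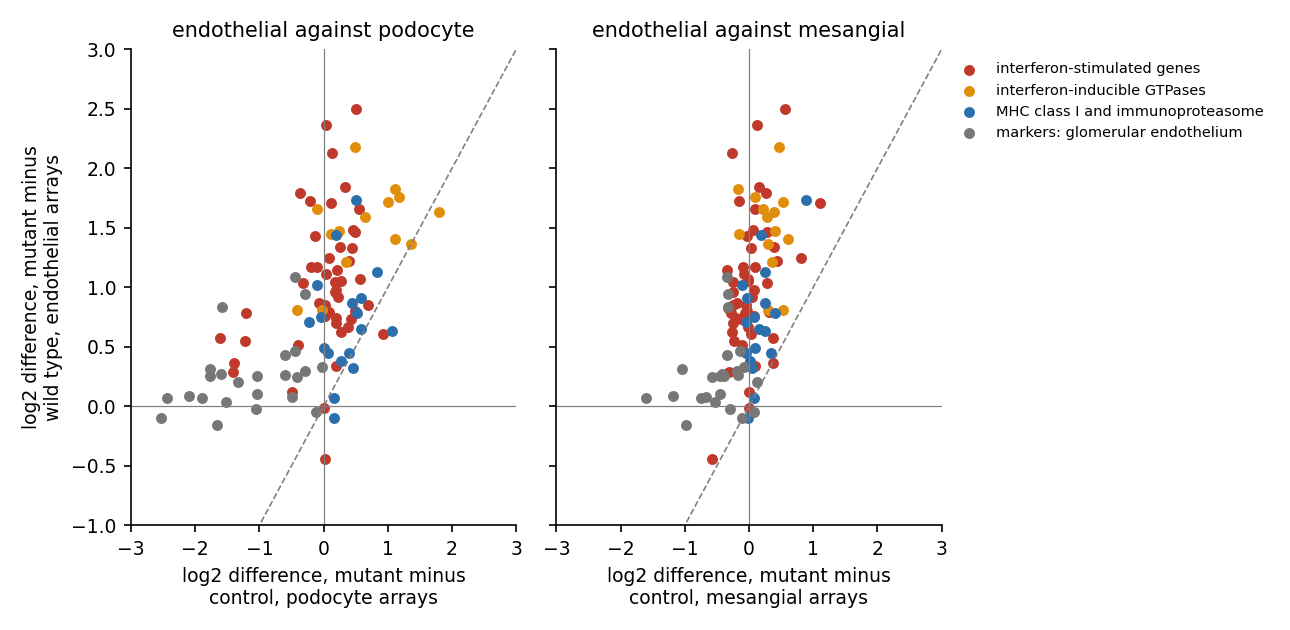
Mutant minus wild type log2 difference in endothelial arrays (vertical axis) against mutant minus control in podocyte or mesangial arrays (horizontal axis of each panel) for the tested members of 4 gene lists, with the dashed line marking equal differences. Interferon-stimulated genes gather near zero in the other cells (medians 0.13 and -0.01), and endothelial markers spread to the left in podocyte arrays (median -1.05).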

How the data were processed

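RNA of the sorted cells was purified with a Qiagen RNeasy Micro kit, amplified by Ribo-SPIA and hybridised to Affymetrix Mouse Gene 1.0 ST arrays. The authors deposited 1 table of 18 arrays with an RMA intensity per transcript cluster on a linear scale, with a normalized form of the same arrays beside it, whose 18 columns were not used. A design note names Exon arrays, which the table's header does not. Per the file headers the annotation is of build mm9. RMA compresses differences of dim probes, so folds of clusters near a signal of 100 can be understated, and the number of arrays limits the precision. No probe-level data were used.

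Signals were taken to log2 and fitted with limma 3.58.1 in R 4.3.3 (lmFit, eBayes, no trend) on the 6 endothelial arrays. Clusters entered with a signal of at least 100 on 1 or more arrays. The low stringency screen kept differences above 1.5-fold with p below 0.05 before adjustment. The stringent screen kept differences above 2-fold in clusters that reached 500 on an array. The adjusted test kept Benjamini-Hochberg p below 0.05 over all clusters tested. The genotype effect in podocytes and mesangial cells was compared through interaction contrasts over all 18 arrays. The mesangial control arrays are marked +:- in the table and wild type in the labels, and are called control. The scripts were tested on simulated data.

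Named genes were Cd2ap, Irf7, Ifit3, Ifit1, H2-Ab1, Adamts5 and Cd36, and genes the study names for endothelium. The muscle contraction genes that the study gives as lower in mutant endothelium were not among them. Also named were the 15 largest increases and the 15 largest decreases with 1 symbol and no overlap of groups. In each list the first 4 members and the 8 largest called changes were added. A gene with several clusters is given by the brightest over the 18 arrays, preferring those with its symbol alone. The members and the lists were chosen with earlier results of these data known. The alternatives were another signal minimum, a fit over all 18 arrays, trended variance, median or quantile scaling, single-symbol clusters, each array left out, and, added after the data were seen, the Y-linked pattern as a block. Results for some genes are not reported here.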

Additional observations from a re-analysis of the deposited data

Results flagged for a closer look

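The genotype effect in endothelium differed from that in another cell type, by the interaction test (limma, adjusted p), for these named genes. Values are log2 differences of the effects, and 3 mutant and 3 control arrays stood behind each effect. Against podocytes, interferon and antigen genes differed, Irf7 by 1.99 (adjusted p = 0.0498), Ifit2 by 1.93 (adjusted p = 0.00157), Oas1b by 0.78 (adjusted p = 0.0338), Slfn2 by 1.36 (adjusted p = 0.0338), Ifngr1 by 1.15 (adjusted p = 0.00157) and Tap2 by 0.79 (adjusted p = 0.0237). Enzymes, receptors and matrix genes differed as well, Entpd1 by 2.55 (adjusted p = 0.0166), Ada by 1.3 (adjusted p = 0.0286), Ace by 1.26 (adjusted p = 0.0169), Il4ra by 0.73 (adjusted p = 0.0399) and Bgn by 2.64 (adjusted p = 0.0416). Genes of endothelial identity and structure followed, Tek by 2.18 (adjusted p = 0.0237), Clec14a by 2.41 (adjusted p = 0.0237), Fli1 by 1.52 (adjusted p = 0.0342), Nr2f2 by 0.91 (adjusted p = 0.0452), Plvap by 1.23 (adjusted p = 0.0457) and Ehd4 by 1.35 (adjusted p = 0.0309). The stress gene Trp53inp1 differed by 0.8 (adjusted p = 0.0352) and Clock by 0.63 (adjusted p = 0.0286). Some of these genes did not pass the screen in endothelium and were lower in mutant podocytes, Ifngr1 at 0.21 in endothelium and -0.94 in podocytes, Tek at 0.09 and -2.09, Fli1 at 0.23 and -1.30, Trp53inp1 at 0.17 and -0.63 and Clock at -0.01 and -0.64. The endothelial marker list had a median genotype effect of -1.05 in the podocyte arrays, and its part in these differences was not tested.

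Against mesangial cells the named genes that differed were Ifit2 by 1.88 (adjusted p = 0.000492), Oas1b by 0.91 (adjusted p = 0.0164), Rnf213 by 1.3 (adjusted p = 0.0413), Tap2 by 0.68 (adjusted p = 0.0428), Entpd1 by 2.28 (adjusted p = 0.0176), Ace by 1.24 (adjusted p = 0.0121), Ada by 1.38 (adjusted p = 0.0212) and Ehd4 by 1.74 (adjusted p = 0.00752). The endothelial markers had a median effect of -0.37 in the mesangial arrays.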

How the results depend on the processing

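No paired analysis was possible because the replicate numbers of the groups are not shared between genotypes. All 114 named genes that passed the low stringency screen kept their sign under each of the up to 13 settings that tested them. This follows in part from the choice of the genes, many of which were named as the largest called changes. Where the groups do not overlap, leaving out 1 array cannot reverse the sign. Of the 114, 76 stayed called in each setting, while 38 lost the call in at least 1. With the Y-linked pattern as a block, added after the data were seen, 87 of the 114 passed. The block was defined by Y-linked signal, so the values it gives for Y-linked genes follow from its construction, Ddx3y at -0.10, Eif2s3y at -0.01, Uty at -0.08 and Kdm5d at 0.09. The 98 lower clusters of the low stringency screen became 61 with array medians subtracted, 149 with the block and 77 to 167 with 1 array left out (155 without mutant array B, 167 without wild type array A). The 9 lower clusters of the stringent screen became 4 among single-symbol clusters, 16 with the block and 5 to 17 with 1 array left out. The 146 adjusted calls became 241 with the signal minimum in all 3 arrays of a genotype, 83 with no minimum, 226 with trended and robust variance, 271 with medians subtracted, 28 with the block and 49 to 252 with 1 array left out (55 without mutant array A, 252, 61 and 49 without wild type arrays A, B and C). Of these the 137 higher became 212, 79, 262 with medians subtracted, 23 and 48 to 200, and the 9 lower 29 under the stricter minimum and with all 18 arrays in 1 fit, 4 with no minimum, 27 with trended variance, 25 with quantile normalization, 5 with the block and 1 to 52. The 285 differences from podocytes became 55 on 12 arrays, 970 with medians subtracted, 46 with the block and 30 to 316. The 145 differences from mesangial cells became 289 on 12 arrays, 262 with medians subtracted, 36 with the block and 86 to 177. The cause of these shifts was not tested. With 3 arrays a group, a difference missed by the screen is not shown to be absent.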

Other observations

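Hmcn1, the gene of the large matrix protein hemicentin 1, is covered by 77 clusters and was chosen after its values were seen. Of 55 tested, 34 rose, beside 2.96% of all clusters, and 1 passed the adjusted test, beside 1.21%. The mutant mean was higher in 54, beside 64.9% (median 0.80). The median signal over these clusters was 183, 99.7 and 174 in the mutant arrays and 64.2, 110 and 84.2 in wild type, so mutant array B lay inside the wild type range. Clusters of 1 gene are not independent. The 7 clusters of Rnu2, the spliceosomal U2 RNA and likewise chosen afterwards, fell together (median -0.77), and 1 passed the adjusted test.

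Of 10 tested glucocorticoid-responsive genes 9 were highest, among the mutant arrays, in array A, as were 5 of 8 clock genes and 40.7% of all clusters tested. Fkbp5, a chaperone of the glucocorticoid receptor, read 395, 99.4 and 163 in mutant arrays and 79.3, 66.9 and 63.7 in wild type (1.41, adjusted p = 0.163, limma), with a difference of 0.87 without mutant array A and no call with the Y-linked pattern as a block (1.22). Zbtb16, a transcription factor induced by glucocorticoids, read 306, 107 and 207 against 71.6, 82.4 and 78 (1.29, adjusted p = 0.113). The groups of these genes did not overlap. Such a gap, with the mutant signals on top, was found for 8 of the 10 listed genes. Among the clusters tested 17.7% had it. The mutant mean was the higher one for all 10 genes, and for 64.9% of clusters. Without mutant array A the list median was 0.36, and with the block it was 0.33. It was 0.28 in podocytes and 0.41 in mesangial cells. Of 10 tested genes of this list 3 rose, beside 2.96% of all clusters (list median 0.45), while 1 of the 10 was called with the block. The cluster shared by the clock repressor Nr1d1 and Thra read 1086, 133 and 269 against 88.1, 138 and 124 (1.56, adjusted p = 0.261). Its call was lost without mutant array A (0.72), in 4 of the other 5 fits with 1 array left out, and with the block (1.23). It was also lost with no signal minimum, with trended and robust variance and under quantile normalization. Of 15 tested immediate early genes, which respond to dissociation among other stimuli, 2 rose, beside 2.96% of all clusters. The list median was 0.14, or 0.05 and 0.33 without mutant arrays A and B and 0.29 and 0.07 without wild type arrays A and B. Egr1 rose by 0.69 (adjusted p = 0.2) and Ier3 by 0.77 (adjusted p = 0.172). Both calls were lost without mutant array A. That of Egr1 was also lost without mutant array C or wild type array C, and that of Ier3 with the block (0.79). None of 9 tested NF-kappaB targets passed (median 0.12, or 0.01 without mutant array B and 0.07 and 0.04 without wild type arrays B and C), and none of 12 tested proliferation genes did (median -0.38, or -0.08 without wild type array A).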
